A study of Canis lupus familiaris with 6 samples.

Results

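The genes described here are the nuclear genes of the mitochondrial respiratory chain, 83 of the 34981 gene symbols in the count files. They were taken by name: every symbol beginning NDUFA, NDUFB, NDUFC, NDUFS, NDUFV, UQCR, COX4, COX5, COX6, COX7, COX8 or ATP5, with SDHA, SDHB, SDHC, SDHD and CYCS. By role they are 7 core and 30 accessory subunits of complex I, 8 complex I assembly factors (NDUFAF1 to NDUFAF8, which are not subunits), the pair NDUFA4 and NDUFA4L2, 4 subunits of complex II, 7 of complex III, cytochrome c (CYCS), 9 genes of complex IV and 15 of the ATP synthase. They are set beside the 13 protein genes that the mitochondrial genome itself encodes. The count files hold no gene under the names COX6A1, COX6B1 and COX7A2, so statements on complex IV cover only part of its subunits.

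Complexes I to IV pass electrons from NADH and succinate to oxygen and pump protons across the inner mitochondrial membrane, and the ATP synthase (complex V) uses that gradient to make ATP. Complexes I, III, IV and V are built from subunits of both genomes, whereas complex II and cytochrome c are wholly nuclear. Photoreceptors pack mitochondria into the inner segment to power the ion pumps that carry the dark current, and they also run a high rate of glycolysis.

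Single-cell RNA was counted in dog neural retina of the genotype given as normal or wild-type. All dogs were immunosuppressed and all had received, under the retina, fragments of retinal organoids grown from the human embryonic stem cell line WA09 carrying CRX-tdTomato. At 3 days after grafting, 2 punches of 5 mm were collected per experiment, 1 of the retina above the transplant and 1 graft-free (the control) from the same retina. There were 3 independent experiments (LG5, RC726, RC724), and the tissue was dissociated with 0.25% trypsin for 10 min. The 6 libraries give 3 pairs, control eyes without any graft were not part of the comparison, and no source used here gives the ages of the dogs. Nor do they say whether reads of the human graft were separated, so RNA of human cells counted on dog genes cannot be told apart from dog RNA in any level over the graft.

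The libraries held 8778 to 23908 barcodes and 34768162 to 60755006 UMIs (unique molecules), and any 2 of them shared 17 to 102 barcodes, at most 0.677% of the smaller one. Cells were sorted by marker genes into 8 classes, named rods, cones, Müller glia and so on for brevity although no sort or label gives them. Each tested class was led by its own list. The sorting used these markers, so this is no independent check of the class names. The 11 rod markers summed to 11906 to 33183 CPM (counts scaled to a common library total) in rods and to 211 to 4489 CPM in the other tested classes. The median rod held 812 to 1867 UMIs. The LG5 libraries stood apart. Both were made with Cell Ranger 6.0.2 and all others with 7.0.0 or 7.1.0, so the version cannot be told apart from the experiment in their levels. Free RNA, estimated from rod markers in cells that should lack them, made up to 36.2% of UMIs there (cones) and at most 17.5% in cones of RC726 and RC724, and 72 of the 80 tested chain genes had their highest rod level there in both punches. TMM scaling subtracts from each log2 change the log2 ratio of the TMM factors, over the graft to control. That ratio was 0.16 for LG5 rods, and 0.0041 and -0.0054 for those of RC726 and RC724. The scaling thus lowered the log2 changes of LG5 rods. For some results that rest on LG5, the value without LG5 is given.

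In rods, 9 respiratory chain genes rose over the graft and 1 fell. The risers were the Rieske iron-sulfur protein UQCRFS1 and UQCR10 of complex III, the complex I accessory subunits NDUFS5, NDUFA11, NDUFB9, NDUFB7 and NDUFB11, the assembly factor NDUFAF8, and COX4I2, the oxygen-regulated form of a complex IV subunit. NDUFA4L2, a paralog of NDUFA4 known as a hypoxia-inducible gene, was below its control level in every experiment. The core subunits of complex I, complex II, cytochrome c and the ATP synthase had no gene past the threshold. UMIs were summed per library over 6938 and 5767 (LG5), 7103 and 6782 (RC726), and 6047 and 5303 (RC724) rods, over the graft and in control, and tested with edgeR with the experiment as a block, at an adjusted p (Benjamini-Hochberg over all genes of the class) under 0.05. The risers were 11.2% of the 80 genes that passed the filter on low counts, against 8.47% of all 15660 genes tested in rods, and the gene that fell was 1.25%, against 8.17%. The share of risers was therefore near the background of a class in which many genes moved.

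NDUFA4L2 was at 77.2, 36.1 and 40.5 CPM in rods over the graft and at 200.4, 71.7 and 78.2 CPM in control (LG5, RC726 and RC724 in this order, here and below). The groups overlapped, since the LG5 level over the graft lay above the RC726 control level, but within each experiment the punch over the graft was lower. Pooled, log2 fell by 1.11 ± 0.13 (edgeR adjusted p = 0.000581), with -1.37, -0.97 and -0.93 in the single experiments. Here and below, ± gives the SE of the edgeR fit on n = 3 pairs, which also draws on other genes. NDUFA4 itself, a subunit that copurifies with complex IV, was at 1095, 352 and 353 CPM over the graft and 1149, 314 and 366 CPM in control. It lay on both sides of 0, with a log2 change of 0.01 ± 0.14 (edgeR adjusted p = 0.960).

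UQCRFS1 carries the iron-sulfur cluster through which complex III hands electrons to cytochrome c1. It was at 482, 201 and 234 CPM over the graft and at 301, 127 and 106 CPM in control rods. It was higher over the graft in each pair, with log2 changes of 0.68, 0.65 and 1.13 and a pooled log2 change of 0.82 ± 0.14 (edgeR adjusted p = 0.00419). UQCR10, a small subunit that binds next to it, was at 718, 270 and 265 CPM over the graft and 465, 181 and 179 CPM in control (log2 0.59 ± 0.13, edgeR adjusted p = 0.0134). For both genes the LG5 libraries were the highest of their group, and the groups overlapped while every pair moved upward.

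The other complex III genes did not pass the threshold. The core protein UQCRC1 was at 85.5, 73.8 and 67.8 CPM over the graft and 100.4, 74.8 and 81.6 CPM in control (log2 -0.17 ± 0.12, edgeR adjusted p = 0.344). Of the 7 complex III genes, 3 had a positive and 4 a negative log2 change, the median was -0.03, and only UQCRFS1 and UQCR10 passed the threshold.

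**Figure D1:**
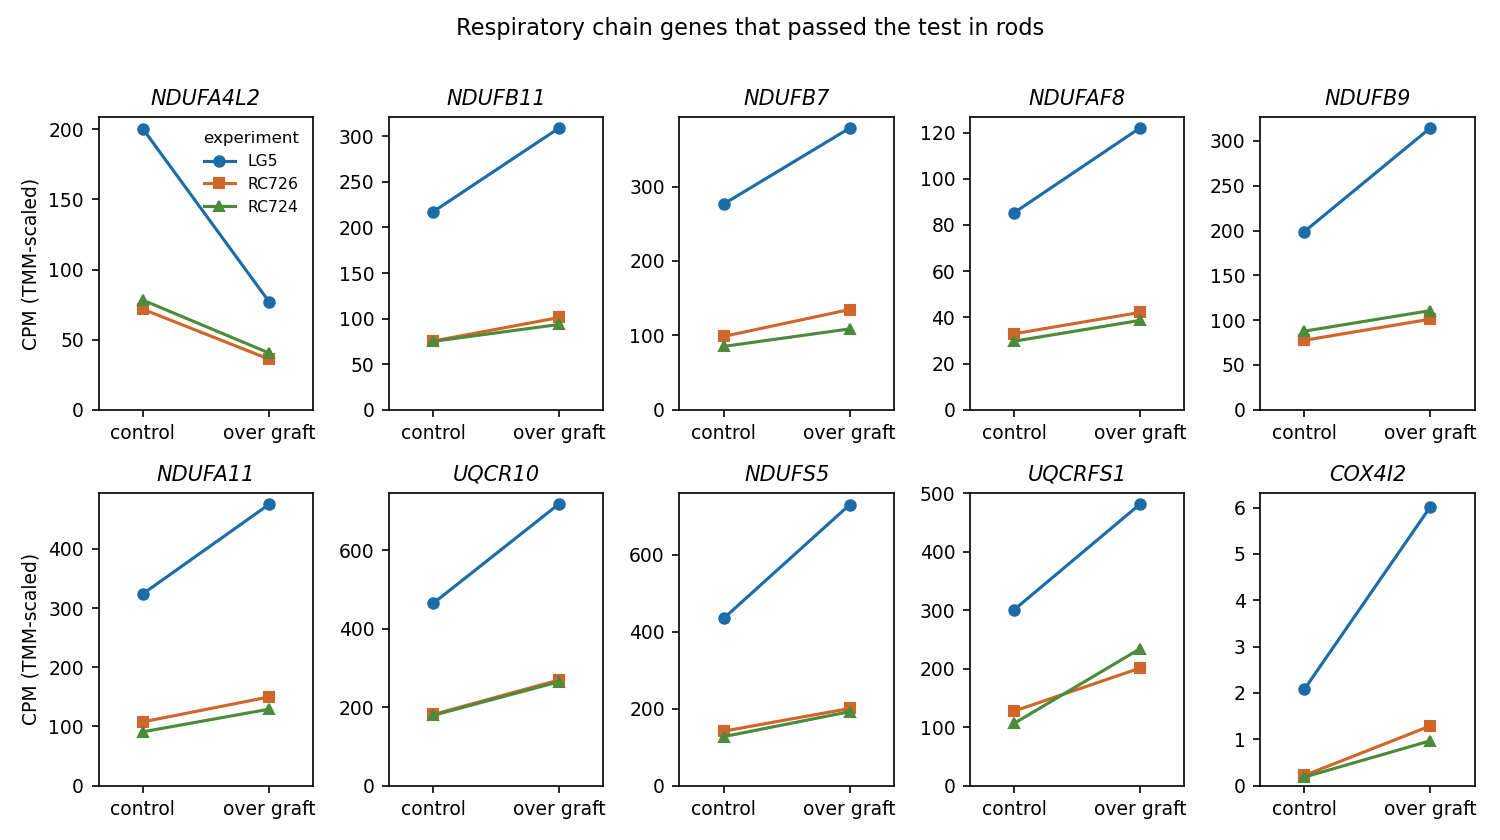
Levels in rods (TMM-scaled CPM) of the 10 respiratory chain genes that passed the edgeR threshold, one point per library. A line joins the control punch and the punch over the graft of each experiment. The lines of 9 genes rise in all 3 experiments and those of NDUFA4L2 fall in all 3, while LG5 lies above RC726 and RC724 in both punches.

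Of the 30 accessory subunits of complex I, 5 rose in rods. NDUFS5, a small subunit on the intermembrane side of the membrane arm, was at 731, 201 and 192 CPM over the graft and 435, 142 and 127 CPM in control. Its log2 change was 0.62 ± 0.13 (edgeR adjusted p = 0.0115). NDUFA11, a membrane subunit of the same complex, was at 475, 150 and 129 CPM over the graft and 324, 108 and 90.9 CPM in control (log2 0.51 ± 0.12, edgeR adjusted p = 0.0187). In both genes all 3 pairs rose by a similar step, 0.50 to 0.75 for NDUFS5 and 0.47 to 0.55 for NDUFA11 on the log2 scale.

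The subunits NDUFB9, NDUFB7 and NDUFB11 of the far end of the membrane arm rose by smaller steps. NDUFB9 was at 315, 101 and 111 CPM over the graft and 199, 77.5 and 87.7 CPM in control (log2 0.46 ± 0.12, edgeR adjusted p = 0.0324). NDUFB7 was at 378, 135 and 109 CPM against 276, 98.5 and 85.1 CPM (log2 0.42 ± 0.12, edgeR adjusted p = 0.0391). NDUFB11 was at 309, 101 and 93.6 CPM against 217, 75.4 and 75.1 CPM (log2 0.42 ± 0.12, edgeR adjusted p = 0.0385). Every pair of these 3 genes was higher over the graft, and the groups overlapped because of LG5. Of the 30 accessory genes, 24 had a positive log2 change and the median was 0.22, against a median of 0.01 over all genes tested in rods, of which 51.1% were positive.

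The core subunits of complex I, which hold the flavin, the iron-sulfur clusters and the quinone site, did not pass the threshold. NDUFV1, the flavin-bearing subunit that takes electrons from NADH, was at 115, 55.6 and 56.2 CPM over the graft and 117, 42.7 and 42.7 CPM in control (log2 0.25 ± 0.13, edgeR adjusted p = 0.203). NDUFS1, the largest core subunit, had a log2 change of -0.12 ± 0.12. NDUFV1 had log2 values of -0.02, 0.37 and 0.39 in the single experiments, and without LG5 it was called higher (log2 0.38, edgeR adjusted p = 0.0376, n = 2 pairs). With all 3 pairs the 7 core genes ranged from -0.12 to 0.31 in log2 change.

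Among the assembly factors, NDUFAF8, which acts in building the complex I quinone module, was at 122, 42.2 and 38.7 CPM over the graft and 85.3, 32.9 and 29.7 CPM in control rods. All 3 pairs were higher over the graft, with a log2 change of 0.42 ± 0.11 (edgeR adjusted p = 0.0328). NDUFAF7, a methyltransferase that acts in complex I assembly, was the only 1 of the 80 tested genes whose groups did not overlap in rods, at 32.9 to 42.6 CPM over the graft and 45.4 to 46.4 CPM in control. Over all genes tested in rods 9.55% had groups that did not overlap. NDUFAF7 is named after its values were seen, and its log2 change of -0.23 ± 0.12 did not pass the threshold (edgeR adjusted p = 0.240).

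Complex II, which oxidizes succinate and feeds its electrons to the quinone pool, showed no gene past the threshold in rods. SDHA, the flavoprotein, was at 40.7, 80.1 and 69.7 CPM over the graft and 58.9, 89.3 and 69.7 CPM in control (log2 -0.22 ± 0.13, edgeR adjusted p = 0.282). The iron-sulfur subunit SDHB and the membrane anchor SDHC both had a log2 change of 0.06 ± 0.12, and the other anchor, SDHD, one of -0.21 ± 0.11. CYCS, the mobile carrier between complexes III and IV, was at 297, 119 and 114 CPM over the graft and 323, 117 and 106 CPM in control. Its log2 change was 0.00 ± 0.12 (edgeR adjusted p = 0.985), and its point values crossed 0 between experiments.

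**Figure D2:**
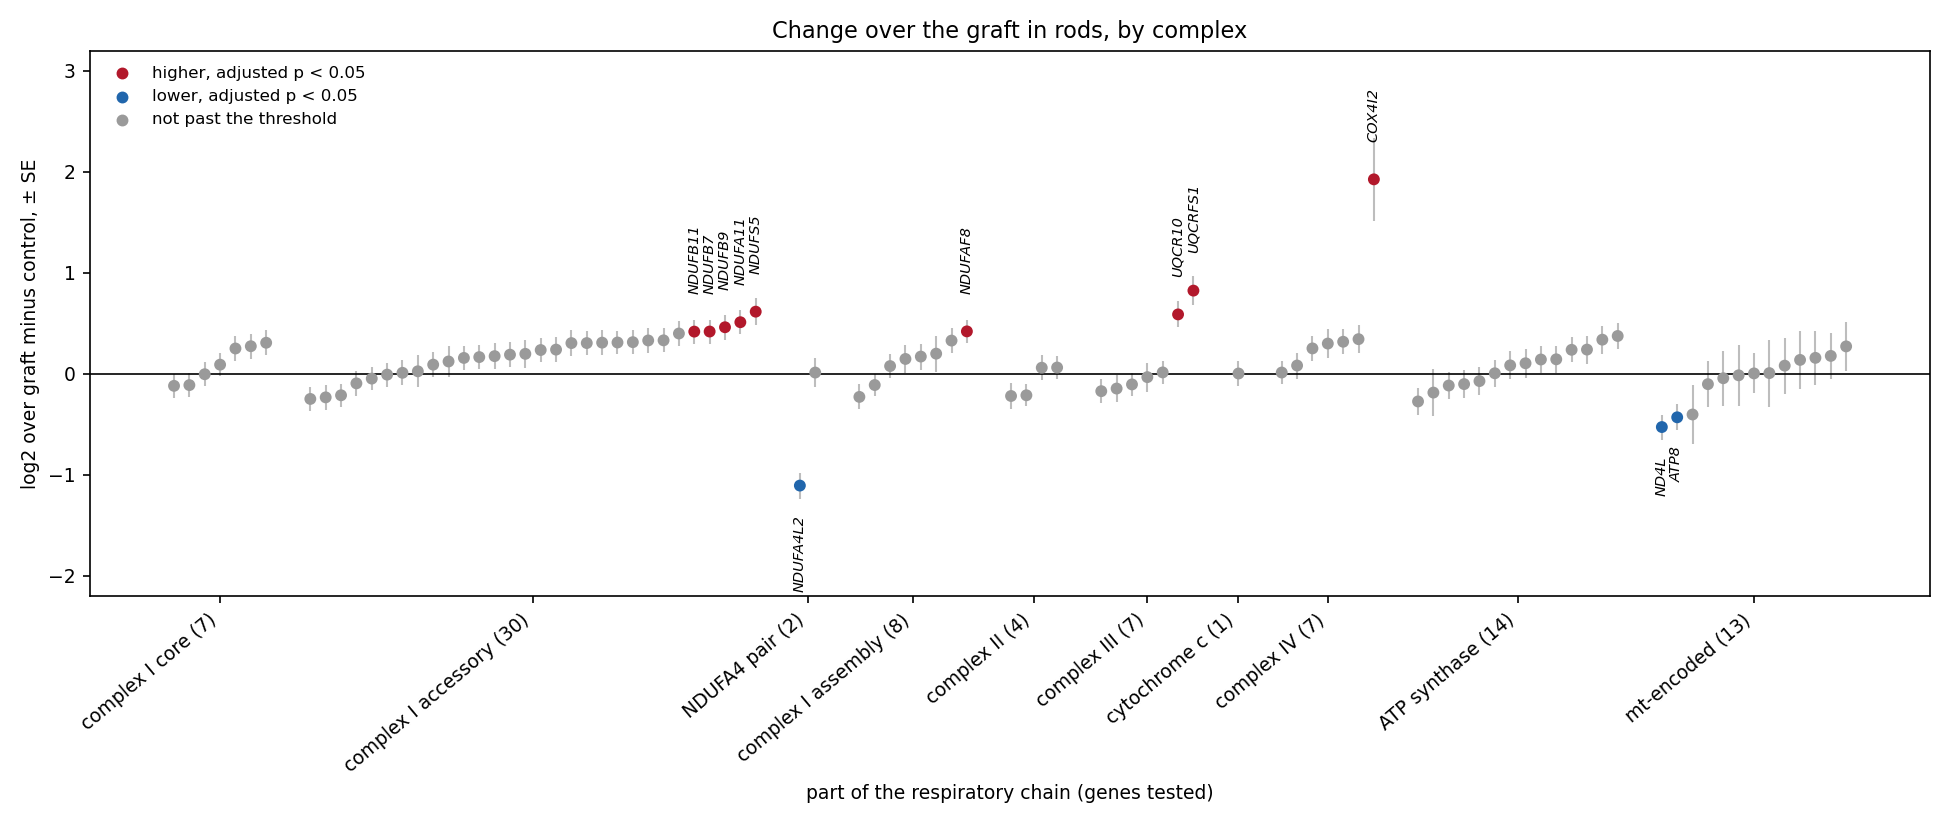
Log2 change over the graft against control in rods (points, with SE as bars) for the 80 tested respiratory chain genes and the 13 mitochondrially encoded genes, grouped by complex and ordered by size within each group. Points past the edgeR threshold are coloured and named, and the accessory subunits of complex I and complex IV lie mostly above 0.

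In complex IV, which reduces oxygen to water, all 7 tested genes had a positive log2 change in rods, with a median of 0.30, and 1 passed the threshold. COX4I1, the common form of subunit 4, was at 1053, 407 and 345 CPM over the graft and 846, 304 and 281 CPM in control (log2 0.34 ± 0.14, edgeR adjusted p = 0.120). COX5A, which binds it, had a value of log2 0.32 ± 0.12 (edgeR adjusted p = 0.111) and COX5B, a zinc-binding subunit, of 0.25 ± 0.12 (adjusted p = 0.194). All 3 pairs were positive for COX4I1, COX5A and COX5B although none of them passed.

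COX4I2, the alternative form of subunit 4, was at 6.02, 1.29 and 0.97 CPM in rods over the graft and at 2.08, 0.22 and 0.18 CPM in control. These values rest on 91 UMIs in the 3 libraries over the graft and 18 in the controls. Every pair was higher over the graft, with a fitted log2 change of 1.93 ± 0.41 (edgeR adjusted p = 0.0116). In endothelial cells, the class with the highest level of this gene, COX4I2 was at 492, 614 and 498 CPM of library totals over the graft and 555, 51.7 and 313 CPM in control, from 9 to 31 cells per library. The 9 pericyte or smooth muscle markers in that class summed to 1867, 2406 and 2368 CPM over the graft and 2628, 439 and 2524 CPM in control, so they too were low in the RC726 control. The summed level of 10 endothelial markers in rods was 73.2, 15.5 and 15.8 CPM over the graft and 52.5, 18.9 and 26.2 CPM in control, and none of the 10 was at 0 UMIs. Those markers were higher over the graft in LG5 only. Bipolar cells held COX4I2 at 3.98 to 38.3 CPM of library totals. In rods, ON bipolar markers were at 408, 471 and 657 CPM over the graft and 309, 440 and 617 CPM in control. OFF bipolar markers there were at 143, 88.2 and 102 CPM against 117, 113 and 154 CPM. In Müller glia COX4I2 was also higher over the graft in every pair, from 93 and 36 UMIs. The part of endothelial or bipolar RNA in the rod result was not tested.

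The other forms in complex IV did not pass. COX7A1, the form of subunit 7A known from muscle and heart, had a log2 change of 0.08 ± 0.13 in rods, and COX7A2L, which joins complexes III and IV into supercomplexes, one of 0.01 ± 0.11. COX8A, the common form of subunit 8, had one of 0.30 ± 0.14 (edgeR adjusted p = 0.174). The tissue-specific isoforms COX6A2 and COX7B2 had 1 UMI each among 72461296 rod UMIs, where a count of 3 would be 0.0414 CPM. ATP5ME had 0 UMIs in rods and in every other class. Whether its RNA was absent or not counted under this symbol cannot be told from these counts.

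None of the 14 tested ATP synthase genes passed the threshold in rods (edgeR, 2 at an unadjusted p under 0.05, against 31.9% of all genes). DESeq2 called ATP5PO, a subunit of the peripheral stalk, higher (log2 0.38, adjusted p = 0.0228). Without LG5, edgeR called ATP5PO (log2 0.39, adjusted p = 0.0271) and ATP5IF1 (log2 0.36, adjusted p = 0.0422). The catalytic subunits ATP5F1A and ATP5F1B were at 292, 165 and 180 CPM and at 429, 280 and 257 CPM over the graft. In control they were at 338, 144 and 149 CPM and at 492, 239 and 211 CPM. In LG5 both stood lower over the graft, and in the other 2 experiments higher, with pooled log2 changes of 0.08 ± 0.14 and 0.11 ± 0.14. ATP5IF1, the peptide that inhibits the enzyme when it runs in reverse, was at log2 0.24 ± 0.14 (edgeR adjusted p = 0.266).

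The rod results were read beside other measures in the same sums. The 11 rod markers were lower over the graft in every pair, at 15666, 18165 and 11906 CPM against 33183, 23586 and 22165 CPM. The same markers sorted the rods, with a cut at 0.5 of each library's own rod marker level. That level was 5347, 7246 and 3575 CPM over the graft and 12414, 10337 and 5394 CPM in control. The cut was thus lower over the graft in every pair, and the rod marker levels are not independent of it. The 10 Müller glia markers, none at 0 UMIs, stood in rods at 4064, 436 and 520 CPM over the graft and 1940, 365 and 582 CPM in control. Of the 9 rising genes, 4 (NDUFS5, NDUFA11, NDUFB11 and NDUFAF8) were also higher in Müller glia than in rods in the control punches. The Müller glia markers in rods differed most in LG5. The part of Müller glia RNA in the rod results was not tested.

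The 10 genes were not equally firm. NDUFA4L2 and UQCRFS1 passed the threshold in each of the 3 fits that left out 1 experiment. COX4I2 passed in 2 of these fits, NDUFAF8 in 0 and each of the other 6 genes in 1. Without LG5, 13 respiratory chain genes rose in rods, without RC726 there was 1, and without RC724 there were 2. A fit on library totals alone, with no TMM factors, called 14 risers. DESeq2 called 12, the same 9 with ATP5PO, COX4I1 (log2 0.35, adjusted p = 0.0391) and NDUFB4 (log2 0.40, adjusted p = 0.0215), and NDUFA4L2 lower. The shares of all genes called in these fits are not given here, so these counts cannot be set against a background.

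Summed over all 83 genes, the chain took 2.74%, 1.02% and 1.06% of rod UMIs over the graft and 2.27%, 0.885% and 0.942% in control. Each pair was higher over the graft, with log2 ratios of 0.27, 0.21 and 0.17 (mean 0.22, SD 0.05, n = 3 pairs, no test). The spread between experiments, 1.61% ± 0.98 over the graft and 1.37% ± 0.79 in control (SD, n = 3), was larger than the step within a pair.

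**Figure D3:**
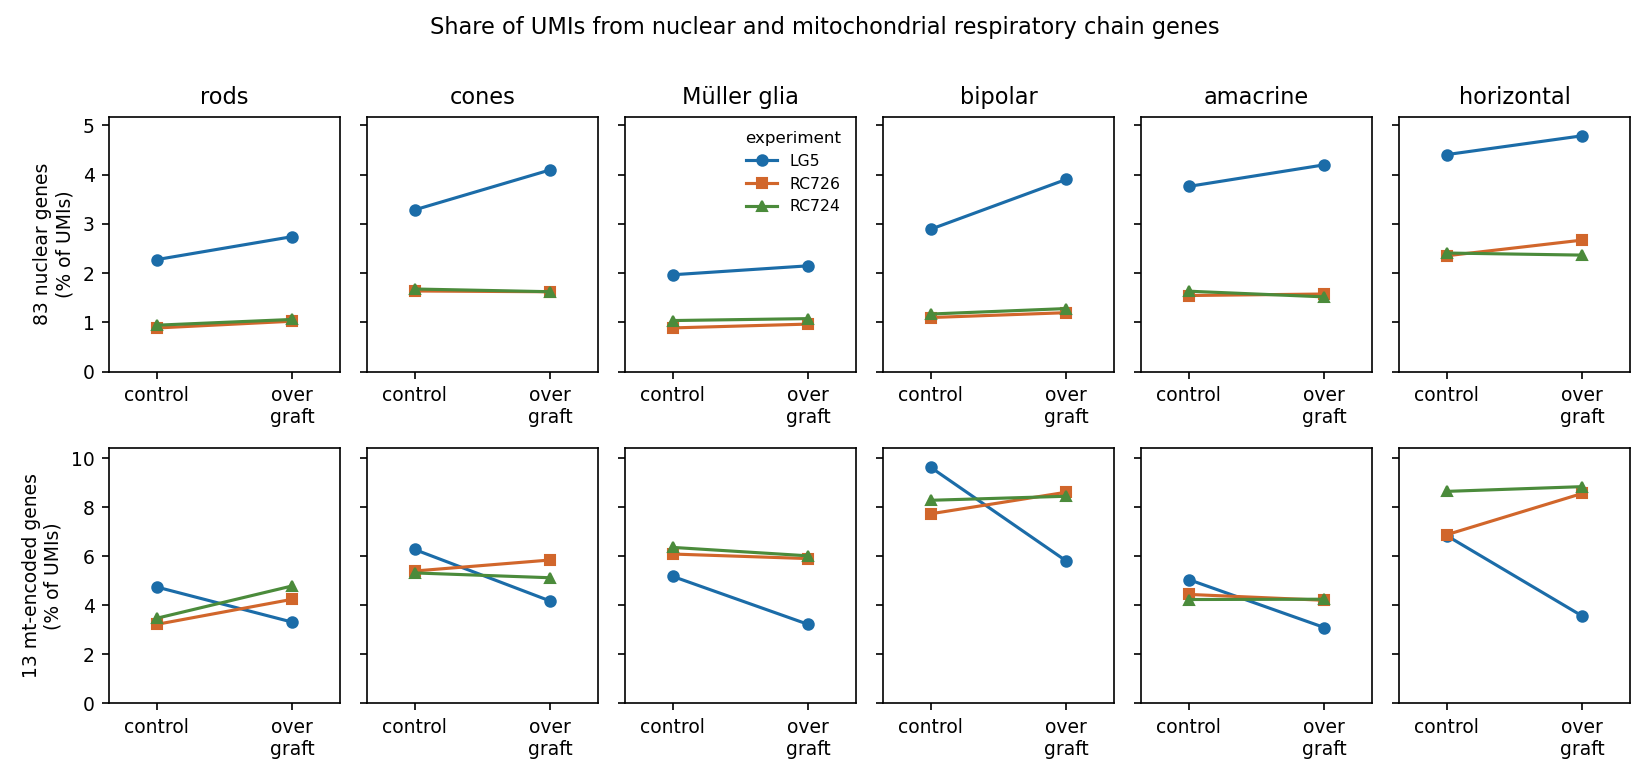
Percent of UMIs from the 83 nuclear respiratory chain genes and from the 13 mitochondrially encoded genes in each of the 6 tested cell classes, one point per library with control and graft punches of an experiment joined. Nuclear shares are higher over the graft in all 3 pairs in rods, Müller glia and bipolar cells, and mitochondrial shares are lower in every class in LG5.

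In the 5 other classes tested no nuclear respiratory chain gene passed the edgeR threshold. Of all genes, 3.29% were called in cones, 0.653% in Müller glia, 0.105% in bipolar cells, 0.245% in amacrine cells and 0.224% in horizontal cells. An unadjusted edgeR p under 0.05 was found for 6 of 79 chain genes in cones (14.4% of all genes), 13 of 80 in Müller glia (16.2%) and 27 of 79 in bipolar cells (10.7%). It was found for 6 of 78 in amacrine cells (6.62% of all genes) and 8 of 75 in horizontal cells (5.19%). DESeq2, run as a second tool, called ATP5MJ and NDUFB1 lower in Müller glia (log2 -0.50 and -0.56) and 0 genes of the chain in the other 4 classes. Few genes of any kind passed in bipolar, amacrine and horizontal cells, so a count of 0 there was close to the background.

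Signs differed between the classes. Log2 changes were positive for 64 of 79 genes in bipolar cells (median 0.19) and for 58 of 80 in Müller glia (median 0.12). They were positive for 39 of 79 in cones, where the median was 0.00. In amacrine cells 47 of 78 were positive (median 0.05) and in horizontal cells 53 of 75 (median 0.12). Of all genes tested, 52.2% were positive in bipolar cells, 49.2% in Müller glia, 52.3% in cones, 51.7% in amacrine cells and 49.8% in horizontal cells. The positive sign held in all 3 experiments for 39 of 80 genes in rods, 51 of 79 in bipolar cells, 35 of 80 in Müller glia and 23 of 79 in cones. The share of UMIs from the 83 genes in cones had log2 ratios of 0.32, -0.01 and -0.05. In bipolar cells it was 0.43, 0.12 and 0.13, and in Müller glia 0.13, 0.12 and 0.05.

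UQCRFS1 had a positive log2 change in each of these 5 classes as well, though in none past the threshold. In cones it was at 557, 217 and 238 CPM over the graft and 392, 206 and 176 CPM in control (log2 0.34 ± 0.15, edgeR adjusted p = 0.325). The log2 change was 0.23 ± 0.11 in Müller glia, 0.24 ± 0.12 in bipolar cells, 0.10 ± 0.15 in amacrine cells and 0.30 ± 0.18 in horizontal cells. All 3 pairs were positive in each of these classes.

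NDUFA4L2 in cones was at 60.9, 63.5 and 42.8 CPM over the graft and 103, 38.8 and 25.9 CPM in control. The single experiments gave log2 values of -0.75, 0.70 and 0.70, for a pooled log2 change of 0.25 ± 0.24 (edgeR adjusted p = 0.720). Without LG5 it was called higher in cones, with a log2 change of 0.70 (edgeR adjusted p = 0.0232, n = 2 pairs). The difference between its change in cones and in rods was 1.40 ± 0.31 on the log2 scale (edgeR interaction), which did not pass after adjustment over all genes (edgeR adjusted p = 0.121). In cones the rod markers summed to 1916, 1200 and 582 CPM over the graft and 4489, 1355 and 942 CPM in control, so rod RNA was also present in the cone sums and was lower over the graft.

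Tests of the difference in change between classes called 0 of the chain's genes. For Müller glia minus rods 80 genes were tested with edgeR, 10 had an unadjusted p under 0.05 (15.3% of all genes), 53 differences were negative and the median was -0.07. Of all genes 2.10% passed. For cones minus rods 6 of 79 had an unadjusted p under 0.05 (10.4% of all genes), 55 differences were negative and the median was -0.10. Of all genes 0.177% passed. DESeq2 was not run for these differences. The change of UQCRFS1 in Müller glia was below that in rods by a log2 difference of -0.60 ± 0.17 (edgeR adjusted p = 0.126), and that in cones by -0.45 ± 0.20 (edgeR adjusted p = 0.451). The rise in rods was thus not shown to differ from the change in the other 2 classes.

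The mitochondrially encoded genes moved otherwise. In rods, ND4L and ATP8 fell and the other 11 did not pass the threshold (edgeR). ND4L, a small core subunit of complex I, was at 283, 114 and 102 CPM over the graft and 441, 152 and 146 CPM in control (log2 -0.53 ± 0.12, edgeR adjusted p = 0.0180). ATP8, a small subunit of the ATP synthase, was at 67.5, 122 and 70.1 CPM over the graft and 105, 138 and 99.2 CPM in control (log2 -0.43 ± 0.13, edgeR adjusted p = 0.0468). Both were lower over the graft in each pair. Leaving out 1 experiment kept the ND4L call in 1 of 3 fits and the ATP8 call in 0.

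In the other classes edgeR, as fitted here, called no mitochondrially encoded gene other than these 2. ATP8 fell in cones (log2 -0.67 ± 0.14, edgeR adjusted p = 0.0197), Müller glia (-1.03 ± 0.14, adjusted p = 0.0336), bipolar cells (-0.81 ± 0.11, adjusted p = 0.0302) and amacrine cells (-0.96 ± 0.17, adjusted p = 0.0270). ND4L fell in cones (-0.86 ± 0.17, edgeR adjusted p = 0.0110) and horizontal cells (-1.005 ± 0.19, adjusted p = 0.00132). Of 3 fits that left out 1 experiment, ATP8 passed in 2 in Müller glia, bipolar and amacrine cells and 1 in cones. ND4L passed in 2 in cones and 1 in horizontal cells. Without LG5, neither ATP8 in bipolar cells nor ND4L in horizontal cells passed. Their log2 changes over these fits ran from -0.85 to -0.75 and from -1.21 to -0.84. The share of all genes called lower was 1.02% in cones, 0.202% in Müller glia, 0.0375% in bipolar cells, 0.139% in amacrine cells and 0.143% in horizontal cells. ATP8 in bipolar cells was at 107, 145 and 90.8 CPM over the graft and 178, 246 and 174 CPM in control, so the groups did not overlap, as for 2.56% of all genes in bipolar cells. On the mitochondrial genome ATP8 overlaps ATP6 and ND4L overlaps ND4, and each pair is transcribed as 1 messenger, so the counting can split reads between them and these values are uncertain. ATP6 and ND4 did not pass in any of the 6 classes. ND3, a core subunit of complex I named after its values were seen, was called lower by DESeq2 in cones (log2 -0.81, adjusted p = 0.0376) and Müller glia (-0.80, adjusted p = 0.0161). After subtraction of the estimated free RNA no mitochondrially encoded gene passed in cones, Müller glia, bipolar or amacrine cells, with log2 changes that stayed close in size. ATP8 was then at -0.63 in cones, -1.04 in Müller glia, -0.80 in bipolar cells and -0.998 in amacrine cells, and ND4L was at -0.90 in cones.

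The other 11 mitochondrial genes split by experiment in rods. Their log2 changes were -1.53 to -0.39 in LG5, 0.06 to 0.59 in RC726 and 0.11 to 0.73 in RC724. COX3, a core subunit of complex IV, was at 4247, 10283 and 10708 CPM over the graft and 8176, 7431 and 7710.4 CPM in control. LG5 was low over the graft and the other experiments were high, with a pooled log2 change of 0.01 ± 0.33. Without LG5, the complex I subunits ND1, ND2 and ND4 were called higher in rods, with log2 changes of 0.57, 0.65 and 0.45. All 13 had a negative pooled change in cones, Müller glia, bipolar and amacrine cells, and 10 of 13 did in horizontal cells. In RC726 alone, the log2 change was positive for 8 of 13 in cones and 10 of 13 in bipolar and in horizontal cells. It was negative in all 3 experiments for 12 genes in Müller glia, 7 in amacrine cells, 5 in cones and 3 each in bipolar and horizontal cells.

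**Figure D4:**
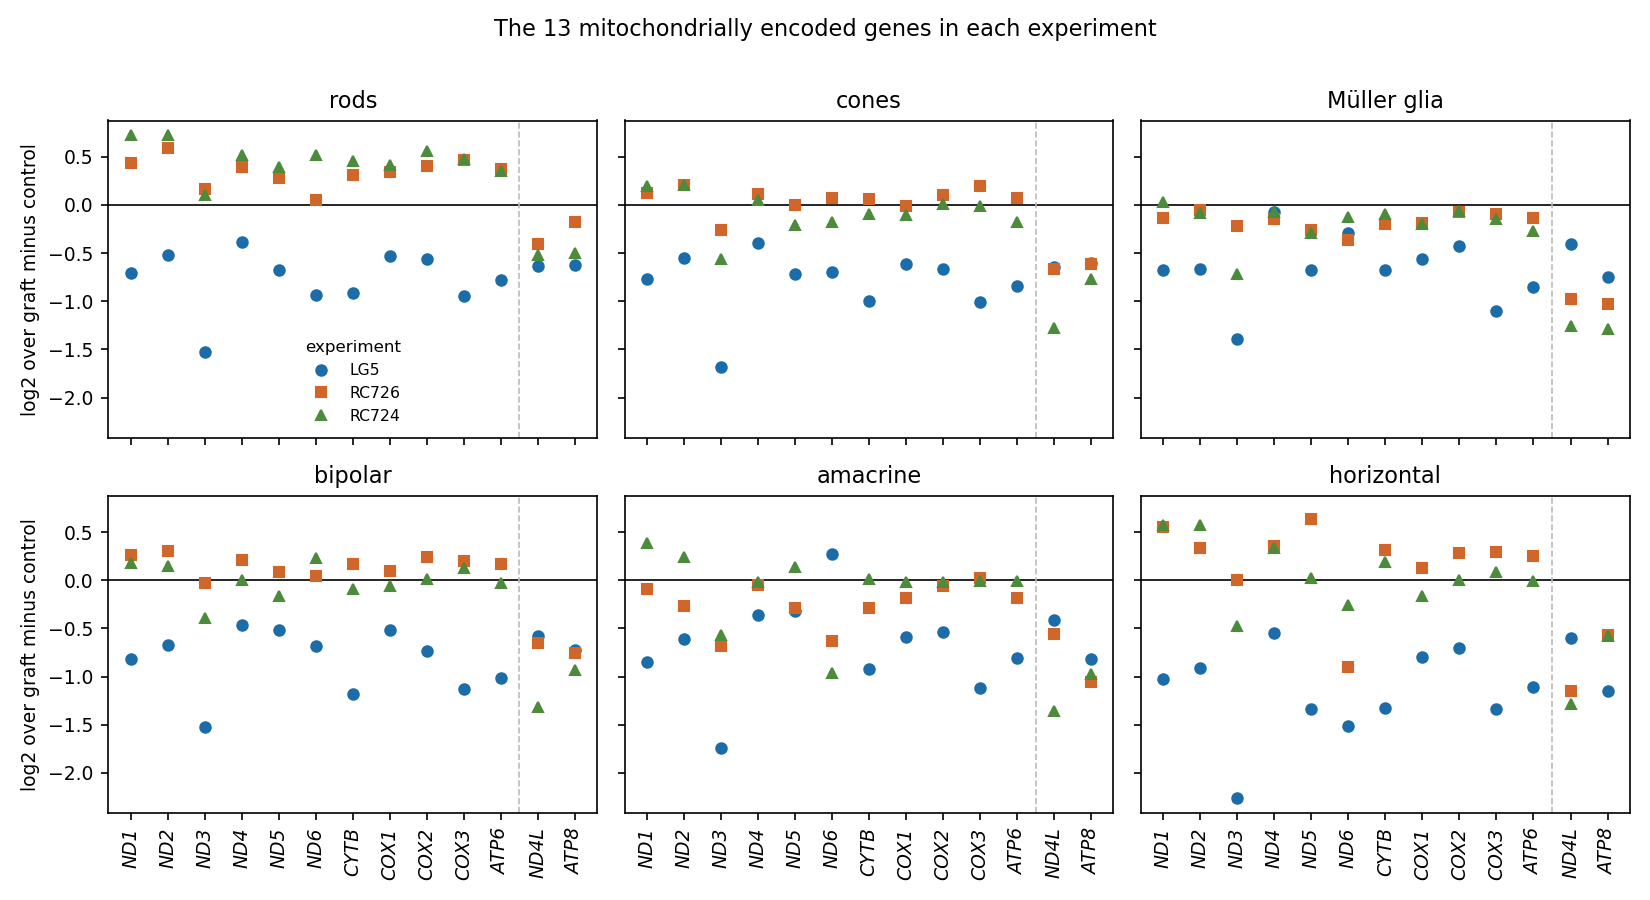
Log2 change over the graft against control, per experiment, for each of the 13 mitochondrially encoded genes in rods and other tested classes. In rods the LG5 points lie below 0 for all 13 genes, while RC726 and RC724 lie above 0 for 11, with ND4L and ATP8 below 0 in all 3.

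The nuclear and the mitochondrial share of rod UMIs differed in the same direction in RC726 and RC724 and in opposite directions in LG5. The share of rod UMIs from the 13 genes was 3.31%, 4.24% and 4.79% over the graft and 4.74%, 3.22% and 3.47% in control, log2 ratios of -0.52, 0.40 and 0.47. Rods held 1.21, 4.15 and 4.52 mitochondrial UMIs per nuclear chain UMI over the graft and 2.09, 3.63 and 3.68 in control. In the other tested classes the LG5 log2 ratio of the mitochondrial share was -0.94 to -0.59, and those of RC726 and RC724 were -0.08 to 0.32. The limit of 20% mitochondrial UMIs per barcode acts on these genes directly. The 2 punches of RC726 were also made with different Cell Ranger versions, 7.1.0 and 7.0.0, which within that pair cannot be told apart from the graft.

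In control retina, most genes of the chain were at a higher level in cones than in rods. In the control punches 65 of 79 tested genes were higher in cones than in rods and 2 were lower (edgeR on 3 libraries with the library as a block), against 22.1% of all genes higher and 22.3% lower. All 14 ATP synthase genes were higher in cones, as were 29 of 30 accessory and 6 of 7 core subunits of complex I, 5 of 7 genes of complex III, 5 of 6 of complex IV and CYCS. Complex II had 2 of 4 (SDHC and SDHD) and the assembly factors 2 of 8. The median log2 difference was 0.79. The calls depended on which library was left out and on the block: 65 genes were higher without LG5, 32 without RC726 and 46 without RC724, and the fit with no block left 0.

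ATP5F1B, the catalytic ATP synthase subunit, was at a mean of 807 CPM in control cones and 293 CPM in control rods (log2 1.55 ± 0.20, n = 3 libraries, edgeR adjusted p = 0.00032). COX7A1 had the largest difference of the 79, 225 against 59.0 CPM (log2 2.04 ± 0.17, edgeR adjusted p = 2.912e-05). COX4I1 was at 1150 against 443 CPM, a log2 difference of 1.48 ± 0.18. SDHA and SDHB did not pass, with log2 differences of 0.15 ± 0.15 and -0.17 ± 0.14.

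The 2 genes lower in cones were NDUFA4L2, at 55.8 against 109 CPM in rods (log2 -1.01 ± 0.17, edgeR adjusted p = 0.00148), and COX7A2L, at 78.4 against 121 CPM (log2 -0.61 ± 0.15, edgeR adjusted p = 0.0112). Of the mitochondrially encoded genes 10 of 13 were higher in cones, a count that was 13 without LG5, 0 without RC726, 1 without RC724 and 0 with no block. Control cones held a median of 1904 to 11851 UMIs per cell against 812 to 1595 in control rods, and the difference in depth moved with this comparison. Its part was not tested.

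**Figure D5:**
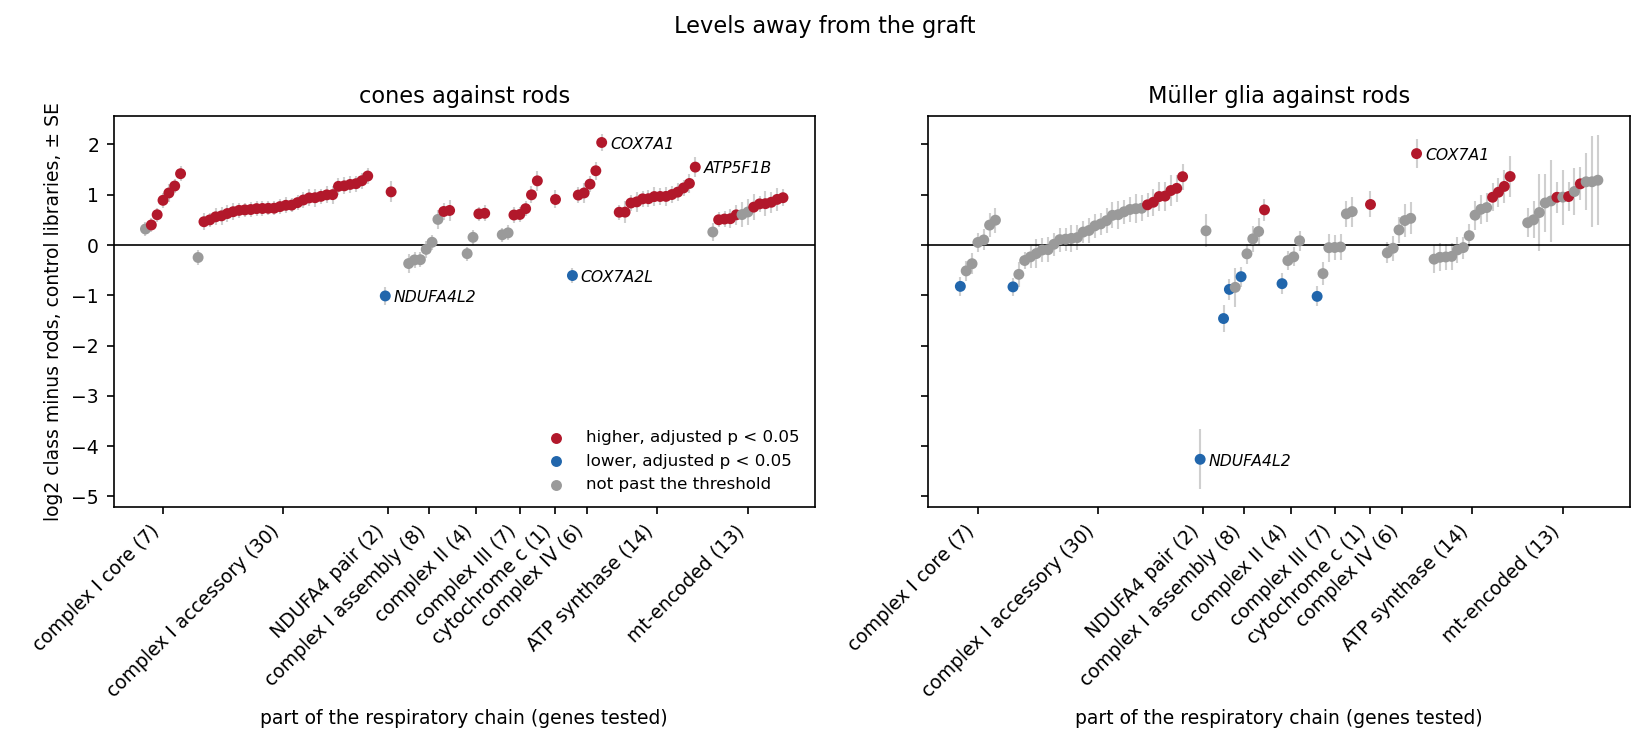
Log2 difference from rods (points with SE as bars) in the 3 control libraries, for the 79 tested respiratory chain genes and the 13 mitochondrial genes, grouped by complex. For cones against rods, most points lie above 0 in every complex except among the assembly factors, and NDUFA4L2 and COX7A2L lie below.

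Fewer of these genes were called between Müller glia and rods. In control, 14 of 79 tested genes were higher in Müller glia and 8 lower (edgeR), against 30.3% and 31.2% of all genes. Leaving out LG5 gave 35 higher and 9 lower, leaving out RC726 gave 1 and 1, leaving out RC724 gave 1 and 3, and the fit with no block gave 0 and 1. COX7A1 was higher in Müller glia, at 174 against 55.4 CPM (log2 1.82 ± 0.29, edgeR adjusted p = 0.00504), as was CYCS (log2 0.82 ± 0.25, edgeR adjusted p = 0.0377). NDUFA4L2 was lower, at 9.47 against 102 CPM (log2 -4.26 ± 0.60, edgeR adjusted p = 0.00365), and so were UQCRC1 (log2 -1.02 ± 0.20), NDUFS1 (-0.82 ± 0.18) and SDHA (-0.77 ± 0.21). By mean control CPM over the 6 tested classes, 62 of the 82 genes with any UMI were highest in horizontal cells, 9 in cones, 7 in amacrine cells, 3 in rods, 1 in bipolar cells and 0 in Müller glia. Horizontal cells were few, 20 to 64 per control library, and this order is a description with no test.

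Genes that build, translate or feed the chain also changed in rods. Of 76 mitochondrial ribosome proteins, which build the machine that translates the 13 mitochondrial genes, 10 rose (13.2%, against 8.47% of all genes) and 3 fell (3.95%, against 8.17%), with 61 positive log2 changes and a median of 0.22 (edgeR). MRPL15 rose by 1.01 ± 0.13 and MRPS10 fell by 1.13 ± 0.17 on the log2 scale. Of 26 assembly factors for complexes II to V, 5 rose, among them SURF1 (log2 0.49 ± 0.12), a complex IV factor, and UQCC3 (0.50 ± 0.12), a complex III factor, and 2 fell, COA6 and LYRM7 (both -0.49). Of 7 further complex I assembly genes 1 fell, TIMMDC1 (-0.75 ± 0.15). Over all these lists and those that follow, the count of risers was 18 without LG5, 9 without RC726 and 5 without RC724, and that of genes that fell was 12, 7 and 4.

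The remaining lists gave few calls apart from hypoxia and glycolysis. Of 17 tricarboxylic acid cycle genes, which feed the chain with NADH and succinate, only MDH2 passed the threshold and fell (log2 -0.67 ± 0.12). Of 17 genes of mitochondrial transcription and biogenesis, PPARGC1B, a coactivator of biogenesis, was the only one to pass and fell (-0.75 ± 0.14). For both lists that is 5.88% lower, near the 8.17% of all genes. Of 19 carriers and import genes TIMM50 rose (0.54 ± 0.13), and the ADP/ATP carrier SLC25A5 (-0.68 ± 0.16) and the outer membrane channel VDAC3 (-0.44 ± 0.13) fell. Of 11 tested hypoxia and glycolysis genes 5 rose (45.5%, against 8.47% of all genes), with the hexokinase HK2 (1.02 ± 0.15), the pyruvate dehydrogenase kinase PDK1 (1.05 ± 0.19) and lactate dehydrogenase LDHA (1.05 ± 0.19) by the largest steps, and ADM fell (-0.53 ± 0.13). NDUFA4L2, which belongs to the same known hypoxia response, thus fell in rods in which HK2, PDK1 and LDHA rose.

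In the other classes these lists gave few calls. HK2 rose in cones (log2 1.10 ± 0.17, edgeR adjusted p = 0.00258) and Müller glia (1.57 ± 0.21, adjusted p = 0.0336), and PDK1 (1.11 ± 0.22) and MRPL15 (0.61 ± 0.14) rose in cones. In bipolar, amacrine and horizontal cells edgeR called none of the 125 to 171 list genes tested, and 29, 5 and 6 of them had an unadjusted p under 0.05, against 10.7%, 6.62% and 5.19% of all genes.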

How the data were processed

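The authors deposited unnormalized counts (UMIs of each gene in each barcode, 3' libraries) from Cell Ranger 6.0.2, 7.0.0 or 7.1.0, per the file headers. The sources used here do not give the genome build, annotation, intron handling or any separation of human reads, so no coordinate or sequence is printed. A barcode needed 300 detected genes and no more than 20% mitochondrial UMIs, and the 6% with the highest simulated-doublet score were removed from each library, which left 8019 to 22349. Of these, 75.4 to 96.1% fell into 1 of 8 classes by summed marker CPM, with at least 3 marker UMIs from 2 markers. The cuts and the doublet share were set after seeing the data. Between 0.23 and 2.67% of rods and 6.07 to 29.0% of amacrine cells lay within 25% of their cut. The median rod had 0 CPM for the markers of 6 other classes and 0 to 679 CPM for bipolar markers.

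UMIs were summed per library and class. Classes with at least 20 cells in all 6 libraries were tested with edgeR 4.0.16 (quasi-likelihood, filterByExpr, TMM) in R 4.3.3, experiment as block, which leaves 2 residual degrees of freedom, and Benjamini-Hochberg adjustment at 0.05. Log2 changes per experiment use CPM + 1. An SE is the log2 change over the root of F. Pairs come from the same retina, and same-experiment sums deviated together (r 0.60 to 0.95 over the 6 classes). edgeR draws the variance of each gene toward that of the other genes, with median prior degrees of freedom of 5.27 (Müller glia) to 94.1 (horizontal cells). The p-values and SEs therefore rest on other genes as well as on the spread between these pairs. Whether the experiments used separate dogs is not given. The script was tested on simulated data. Python 3.11.15 was used.

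Named are genes past the threshold with 1 direction in all 3 experiments and at least 20 CPM, up to 12 each way, plus fixed core subunits, isoforms and regulators, and up to 4 called genes of each other list. Genes and lists were chosen with earlier results of these data known. Alternatives were DESeq2 1.42.0, other scalings, filters, cuts, free RNA subtraction, no block and leaving out experiments. Microglia and endothelial cells, down to 9 cells in a library, were not tested.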

Additional observations from a re-analysis of the deposited data

How the results depend on the processing

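The limits are 3 pairs with 2 residual degrees of freedom, LG5 libraries with more free RNA, class cuts set after the data were seen, and low depth for COX4I2. Calls among respiratory chain genes depend on the tool, outside rods also on the filter. Shares of all genes called are given for the main fits only, so the counts of the alternatives have no background beside them. DESeq2 called 12 risers in rods.

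Without the replicate block, no respiratory chain gene rose or fell in rods (0 and 0), 0 mitochondrially encoded genes were called in any class, and 0 genes of the other lists in rods, cones and Müller glia. In control, 0 nuclear and 0 mitochondrial genes were then higher in cones than rods and 0 lower, and Müller glia against rods kept 0 higher, 1 lower and 1 mitochondrial. The block changed the sign of NDUFA4 (-0.0235) and CYCS (-0.0408) in rods. The cause was not tested.

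With no filter on low counts, Müller glia had 1 chain gene higher and 3 lower, 3 mitochondrial genes lower and 9 list genes higher and 4 lower. Bipolar cells had 2 chain genes higher, 3 mitochondrial lower and 7 list genes higher, amacrine cells 3 mitochondrial lower, and cones 1 list gene lower. DESeq2 gave 2 chain genes, 3 mitochondrial and 1 list gene lower and 2 list genes higher in Müller glia, 2 mitochondrial in bipolar and 0 in amacrine and horizontal cells, and 1 list gene lower in cones. Library totals only, chosen after seeing the data, gave 14 risers, 1 mitochondrial and 7 list genes lower in rods, 0 mitochondrial in bipolar and 2 in amacrine cells. A limit of 10% mitochondrial UMIs gave 1 mitochondrial gene in rods, 0 in bipolar and horizontal and 2 in amacrine cells, and a log2 ratio of 0.15 for the nuclear share in Müller glia. No mitochondrial limit and RLE size factors gave 2 in amacrine cells, no doublet removal 3, and it gave 1 list gene higher in bipolar cells. Stricter class cuts gave 0 in amacrine and horizontal cells. Free RNA subtraction gave 0 mitochondrial genes in cones, Müller glia, bipolar and amacrine cells, and 1 and 0 list genes higher in cones and Müller glia. CYCS in rods was -0.0015 with no mitochondrial limit. The cause was not tested in any of these.

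Leaving out 1 experiment left 1 to 13 chain genes higher in rods, 0 to 3 mitochondrial genes higher and 0 to 1 lower, and 5 to 18 list genes higher and 4 to 12 lower. In cones it left 0 to 1 chain genes higher and 0 to 1 lower, 1 to 2 mitochondrial lower and 1 to 3 list genes higher. It left 0 to 2 mitochondrial genes lower in Müller glia, bipolar and horizontal cells and 0 to 3 in amacrine cells, 0 to 2 list genes higher and 0 to 1 lower in Müller glia, and 0 to 3 higher in bipolar cells. In control it left 32 to 65 chain genes higher and 1 to 3 lower in cones than rods, and 1 to 35 higher and 1 to 9 lower in Müller glia, with 0 to 13 mitochondrial genes higher in each. The difference in change between cones and rods had 0 to 1 positive calls. Among genes near 0 the sign changed: COX7A1 ran from -0.0327 to 0.23, COX7A2L from -0.0007 to 0.0229, CYCS from -0.0255 to 0.058 and NDUFA4 from -0.0714 to 0.0636 in rods, and NDUFA4L2 from -0.0174 to 0.70 in cones.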

Other observations

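Vascular and immune cells were too few for a test, and their values are given as they stand. On CPM of library totals, NDUFA4L2 in endothelial cells was at 56.5, 99.0 and 76.7 CPM over the graft and 53.4, 8.61 and 40.2 CPM in control, from 222 and 30 UMIs. Each pair was higher over the graft, opposite to the direction in rods, and the RC726 control value rests on 1 UMI. Pericyte or smooth muscle markers in this class, 439 CPM in the RC726 control and 2406 CPM over the graft there, moved with it in that pair, and their part was not tested. In LG5 and RC724 the pericyte or smooth muscle markers were lower over the graft. Müller glia markers were also present in this class, and in LG5 they stood above its endothelial markers. The nuclear chain took 1.37% ± 0.53 of endothelial UMIs over the graft and 1.31% ± 0.56 in control (SD, n = 3), log2 ratios of 0.02, 0.09 and 0.12.

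In the microglia or macrophage class the nuclear chain took 1.66% ± 0.60 of UMIs over the graft and 1.47% ± 0.07 in control (SD, n = 3). The log2 ratio was 0.64 in LG5, with 652 and 203 cells, and -0.06 and -0.22 in RC726 and RC724, with 9 to 35 cells per library. COX4I2 in bipolar cells was at 25.9, 12.4 and 11.1 CPM over the graft and 38.3, 12.3 and 3.98 CPM in control, a level above that in rods of the same library in all 6 libraries.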
